A study of Mus musculus with 4 samples.

Results

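The insulin-like growth factor (IGF) genes examined here were the ligands Igf1 and Igf2, the receptors Igf1r and Insr, and the binding protein genes Igfbp2, Igfbp3, Igfbp4, Igfbp5, Igfbp6 and Igfbp7. They were chosen by gene symbol, and each of the 10 matched exactly 1 gene of the count matrices. Their unique molecular identifier (UMI) counts were summed over the cells of each type in each single-cell RNA sequencing (scRNA-seq) library, and testicular organoids (TOs) were compared with testes. The libraries comprised 2 TO replicates and 2 testis replicates from mouse. The TOs were grown from dissociated testis cells of ICR pups in the first postnatal week, which were aggregated into spheroids. The spheroids were embedded in a basement membrane extract on culture inserts, and were later freed of it and cultured further on inserts. The culture medium contained serum replacement, FSH, testosterone and antioxidants. The aggregation medium also contained insulin. The TOs were 28 days old by the series design, whereas the dissociation protocol in the labels names day 21. The testes came from 28-day-old mice, and all cells were unsorted. By the study's account the TO libraries came from independent batches and the testes were biological replicates, and the p-values rest on the spread between these few libraries.

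IGF1 and IGF2 are secreted growth factors that signal mainly through the IGF1 receptor, a tyrosine kinase closely related to the insulin receptor, and from there through receptor substrates, PI3K and AKT to mTOR and the FOXO factors. IGF-binding proteins carry the ligands outside cells and can limit or prolong their access to the receptor, and proteases such as PAPP-A cut some of them. In the testis, IGF and insulin signalling is known for roles in Sertoli cell proliferation, Leydig cell maturation and steroidogenesis.

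The matrices held 11826 to 14643 barcodes per library with 74988295 to 119966959 UMIs, and any 2 libraries shared 30 to 55 barcode sequences. After filtering, 37898 cells remained, of which 8713 to 9867 came from each library. Cells were clustered without the IGF genes and the other pathway genes, and clusters were named from marker genes, so each name below means a group of cells like that type. Sertoli, Leydig, macrophage, myoid or smooth muscle, stromal, spermatogonial, spermatocyte and spermatid groups were found in all 4 libraries. Endothelial cells were named in the testes only, with 132 and 87 cells. The spermatid group had 50 and 37 cells in the TOs and 5620 and 6440 in the testes. Levels are given as CPM, the UMIs of a gene scaled to a fixed total of UMIs in the summed cells of a type and library. Spermatid markers, a gauge of RNA carried between droplets, summed to 1212 to 4417 CPM in the somatic types of the testes and to 0.657 to 3.59 CPM in those of the TOs. With so few spermatids in the TOs, this gauge cannot measure carry-over there. For stromal markers the lowest sum in a somatic type was 173 CPM in TOs and 9.61 CPM in testes. It was 117 and 44.8 CPM for Sertoli markers, and 24.6 and 14.4 CPM for markers of spermatogonia. The Sertoli cells of testis replicate 2 stood apart, since 103 of 138 fell in a cluster, number 26, that no other library had.

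Each of the 10 genes had a characteristic set of cell types, and several kept it in both conditions. Igf1 and Igfbp6 were highest in stromal cells of TOs and testes, Igfbp2 in Leydig cells, and Igf1r was detected widely and lowest in spermatids. Between conditions, 36 of the 80 pairs of gene and cell type could be tested. Another 43 were left out because all other cells of the same condition together had at least 5 times the level of the type, at which point carried-over RNA could set the value. Some of these also had too few UMIs, and 1 further pair was left out for few UMIs alone. With no gene left out for background, 67 of the 80 pairs could be tested. Calls required a Benjamini-Hochberg adjusted p under 0.01 in edgeR's quasi-likelihood test and more than a 2-fold change, that is 1 on the log2 scale. By that rule 4 pairs were higher in TOs, namely Igf1 in myoid cells, Igfbp4 in macrophages, Igfbp3 in Sertoli cells and Igf1r in spermatocytes, and 1 was lower, Igf1r in Sertoli cells. Of all genes tested in the same fits, the share called higher in TOs was 3.98% in myoid cells, 2.62% in macrophages, 6.74% in Sertoli cells and 7.93% in spermatocytes, and the share called lower was 17.8%, 13%, 14.8% and 17.7%. The count of pairs higher rested on single libraries, as it was 7 without TO replicate 1, 2 without testis replicate 1 and 1 without testis replicate 2. The count of pairs lower was 0 without either TO replicate and 2 without testis replicate 1.

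**Figure D1:**
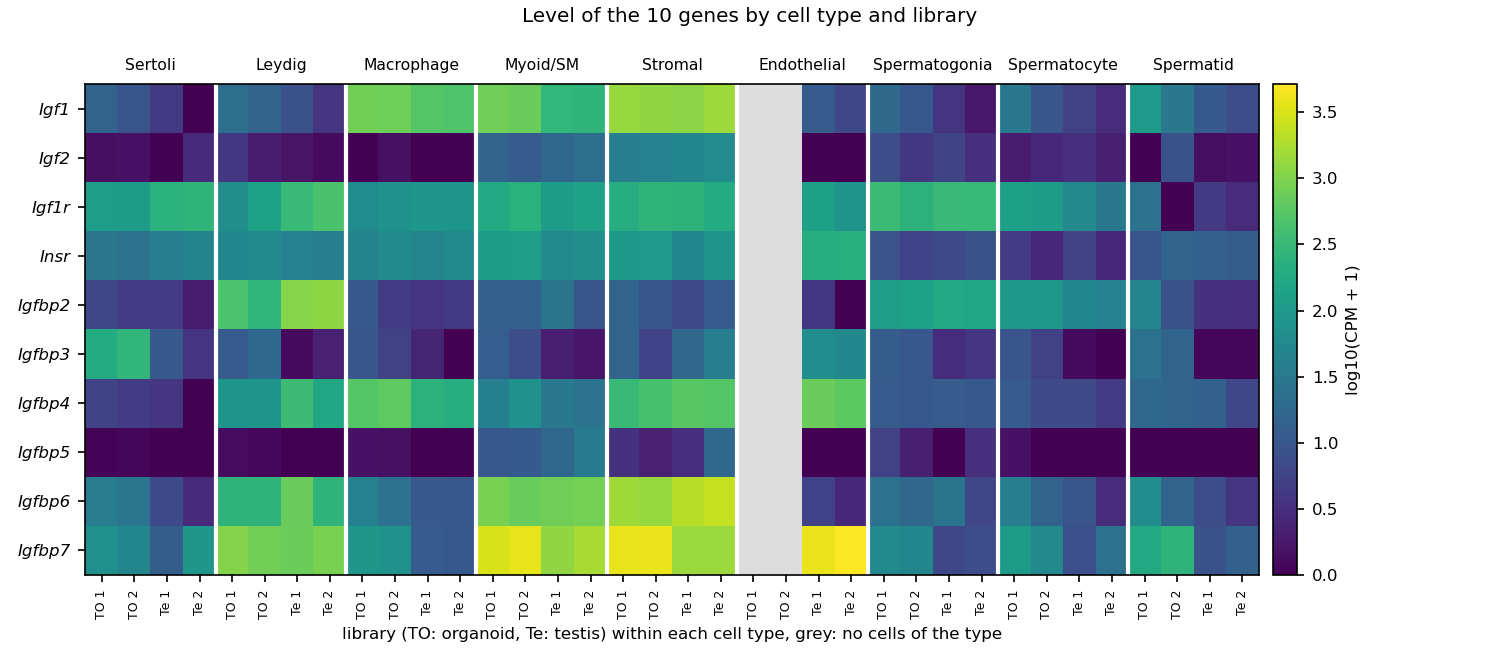
Level of the 10 genes, as log10(CPM + 1), in each cell type (blocks) and library (columns, TO 1 and 2 then testis 1 and 2), with grey where a library had no cells of the type. Igf1 and Igfbp6 were bright in stromal and myoid cells of all 4 libraries, Igfbp2 in Leydig cells, and Igfbp3 in the Sertoli cells of the TOs.

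The cell mix differed between conditions, so totals over a library and levels within a type were kept apart. Over all kept cells, Igf1 reached 429 and 561 CPM in the TO libraries and 63.7 and 59.6 CPM in the testes. Stromal cells, the main source, held 57.5% and 67.9% of the Igf1 UMIs in TOs and 56.1% and 66.8% in testes. Leydig cells held 81.6% to 89.9% of the Igfbp2 UMIs in every library. For Igfbp3 the source moved, as Sertoli cells held 80.5% and 77.6% of its UMIs in TOs but 23.5% and 3.1% in testes. Endothelial cells held 40.2% and 32% of the Igfbp3 UMIs of the testes.

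**Figure D2:**
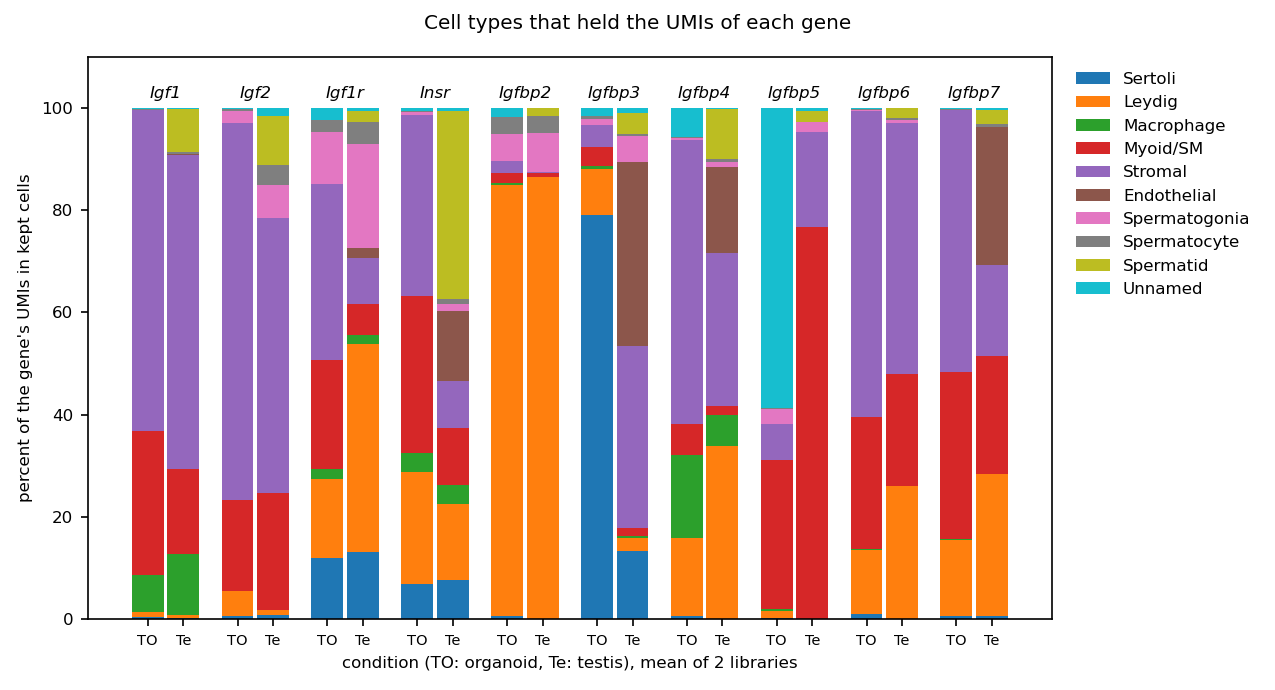
Percent of each gene's UMIs in kept cells that came from each cell type, as stacked bars, for TOs and testes (mean of 2 libraries each). Igfbp2 came mainly from Leydig cells in both, whereas the Igfbp3 bar changed from Sertoli cells in TOs to stromal and endothelial cells in testes.

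Igf1 (ENSMUSG00000020053, chromosome 10, 87858265 to 87937042 on the plus strand of GRCm38) encodes the main postnatal IGF ligand. In myoid cells it had 819 and 740 CPM in the TOs and 289 and 268 CPM in the testes. The ranges did not overlap, and the log2 fold change was 1.45 ± 0.24 (SE, n = 2 libraries per condition, adjusted p = 0.00173). After thinning every cell to 1500 UMIs, 61.6% and 57.2% of the TO myoid cells and 30.2% and 24.9% of the testis myoid cells had an Igf1 UMI. The same measure was at most 2.3% in Sertoli cells, a type with little Igf1, and the myoid cells below the thinning depth were 8, 1, 0 and 0.

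The myoid group held 2 clusters, and both had more Igf1 in TOs. In cluster 1, led by Acta2, Tnnt2 and Myh11, Igf1 had 841 and 763 CPM in TOs against 413 and 394 CPM in testes. In cluster 18, led by Rgs5 and Notch3 as in mural cells of vessels, it had 343 and 359 CPM against 15.4 and 0 CPM. Cluster 18 made up 68 and 76 cells in the TOs and 217 and 145 in the testes. With cluster 1 alone, a choice made after seeing the data, the log2 fold change of Igf1 was 0.95 (adjusted p = 0.0175), which fell short of the call. Stromal markers, where Igf1 was highest, summed to 4767 and 6734 CPM in TO myoid cells against 2364 and 2494 CPM in testis myoid cells and 10637 to 13803 CPM in stromal cells, with all 8 markers detected in every library except Lum, at 0 in the myoid cells of testis replicate 2. Their part in the result was not tested. The call was lost without testis replicate 1 (adjusted p = 0.0108) and without testis replicate 2 (log2 fold change 1.37, adjusted p = 0.0226).

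In stromal cells Igf1 stood at 1381 and 1231 CPM in TOs and at 1159 and 1458 CPM in testes. The ranges overlapped, and the log2 fold change was 0.07 ± 0.28 (SE, adjusted p = 0.882). Of all genes tested in stromal cells, 1.86% were called higher and 15% lower in TOs. In macrophages Igf1 had 824 and 778 CPM against 526 and 487 CPM, a log2 fold change of 0.84 that did not reach the call (adjusted p = 0.0405). In Sertoli, Leydig and germ cells of the TOs it lay between 8.2 and 97 CPM, and these pairs were left out for background.

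Igf2 (ENSMUSG00000048583, chromosome 7, 142650766 to 142666816, minus strand) encodes the fetal growth ligand and is imprinted. It was low everywhere. The gene models Gm49394 and Mir483 overlap it on the same strand, and whether this altered its counts was not tested. Igf1, Igf2, Insr and Igfbp7 also overlap genes on the opposite strand, and the sources used here do not state whether counting used the strand. Stromal cells had its highest levels, with 37.2 and 42.3 CPM in TOs and 49.1 and 61.1 CPM in testes. Myoid cells came next with 14.2 and 10.9 CPM against 16.5 and 21.1 CPM. In both types the TO libraries lay below the testis libraries without passing the test (log2 fold changes -0.40 and -0.61, adjusted p = 0.219 and 0.154). Macrophages had 2 Igf2 UMIs in all 4 libraries together, both in TO replicate 2.

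Igf1r (ENSMUSG00000005533, chromosome 7, 67952827 to 68233668, plus strand) encodes the IGF1 receptor. In Sertoli cells, the somatic nurse cells of the tubule, it had 119 and 109 CPM in TOs and 234 and 267 CPM in testes. No TO value reached a testis value, and the log2 fold change was -1.06 ± 0.16 (SE, adjusted p = 0.00196). The call was close to the fold threshold. Without TO replicate 1 the log2 fold change was -1.11 (adjusted p = 0.0293), without TO replicate 2 it was -1.05 (adjusted p = 0.0313), and without testis replicate 2 it was -0.96 (adjusted p = 0.00421). The clusters of the group were shared unevenly. In cluster 6 Igf1r had 127 and 120 CPM in TOs against 229 CPM in testis replicate 1 and 137 CPM from 11 UMIs in testis replicate 2, and that cluster alone gave a log2 fold change of -0.74 (adjusted p = 0.184). Cluster 17, with 341 and 185 TO cells and 12 and 2 testis cells, had 55.2 and 33.6 CPM in TOs, and cluster 26 of testis replicate 2 had 268 CPM.

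In Leydig cells, the steroid-producing cells of the interstitium, Igf1r had 66.6 and 130 CPM in TOs and 313 and 440 CPM in testes. The TO values were all below the testis values, and the log2 fold change was -2.09 ± 0.38 (SE), yet with an adjusted p of 0.0275 the pair was not called. In Leydig cells 0.279% of all genes were called higher and 0.688% lower. In myoid cells Igf1r went the other way, with 177 and 231 CPM against 109 and 131 CPM (log2 fold change 0.74, adjusted p = 0.0394), and in cluster 1 alone the difference reached the call at 1.10 (adjusted p = 0.00836). In stromal cells the ranges of 203 and 269 CPM and of 249 and 194 CPM overlapped. Macrophages had 62.5 and 77.4 CPM against 87.7 and 81.7 CPM, with an adjusted p of 0.843.

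**Figure D3:**
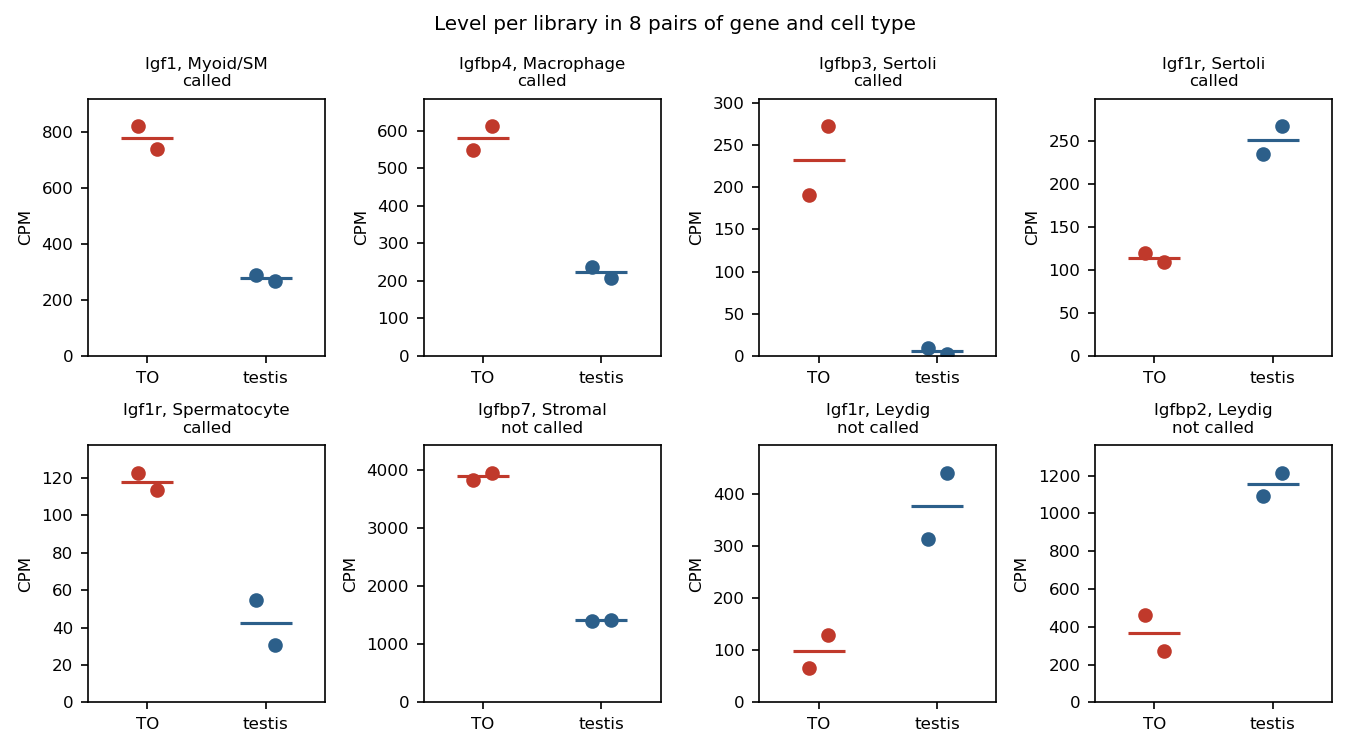
CPM in each library (points) with the mean of 2 libraries (lines) for 8 pairs of gene and cell type, each panel on its own axis from 0. The 5 called pairs and 3 pairs with large differences that were not called were picked for display. That the TO and testis libraries are separate in every panel follows from this choice.

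Among germ cells, Igf1r was highest in spermatogonia, with 338 and 245 CPM in TOs and 330 and 304 CPM in testes, and the ranges overlapped. Of all genes in spermatogonia 0.334% were called higher and 8.43% lower in TOs. In spermatocytes Igf1r had 123 and 113 CPM in TOs and 54.5 and 30.5 CPM in testes. The ranges were apart, with a log2 fold change of 1.36 ± 0.29 (SE, adjusted p = 0.00646). Without testis replicate 2 it was 0.97 (adjusted p = 0.0442).

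The mix of spermatocyte clusters also differed between conditions. Cluster 9, led by genes of early meiosis such as Dmc1 and Tex12, held 238 and 301 of the TO spermatocytes and 394 and 363 of the testis spermatocytes. In it Igf1r had 133 and 121 CPM against 111 and 53.5 CPM. In cluster 19, with 236 and 179 testis cells, Igf1r had 8.8 and 7.9 CPM in testes, and in cluster 23, with 61 and 173 testis cells, it had no UMI. Cluster 19 held 56 and 18 TO cells and cluster 23 held 7 and 1. With cluster 9 alone the log2 fold change was 0.59 (adjusted p = 0.247). Markers of spermatogonia summed to 1277 and 1304 CPM in TO spermatocytes and to 344 and 184 CPM in testis spermatocytes, with all 7 present in every library except Gfra1, at 0 in TO replicate 2. Their part in the result was not tested. In the few TO spermatid-like cells Igf1r had 3 UMIs, and no gene of the family could be tested there. In that type 0% of all genes were called higher and 0% lower by edgeR, with 2145 of 10701 genes at an unadjusted p under 0.05.

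Insr (ENSMUSG00000005534, chromosome 8, 3122061 to 3279617, minus strand) encodes the insulin receptor. Its highest level was in the endothelial cells of the testes, with 204 and 208 CPM. Myoid cells had 108 and 120 CPM in TOs and 57.6 and 69.5 CPM in testes. All TO values were higher, but the log2 fold change of 0.82 ± 0.21 (SE, adjusted p = 0.0162) missed both the fold threshold and the adjusted p threshold. Stromal cells had 95.5 and 97.1 CPM against 49.1 and 83 CPM (log2 fold change 0.63, adjusted p = 0.111). In Sertoli cells the direction was the opposite, with 28.2 and 23.2 CPM against 37.5 and 47 CPM (log2 fold change -0.62, adjusted p = 0.0535). Leydig cells had 48.9 and 56.4 CPM against 41.4 and 38.3 CPM (adjusted p = 0.454), and in macrophages the ranges overlapped. Testis spermatids had only 13.3 and 11.2 CPM, but through their number they held 35.4% and 38% of the Insr UMIs of those libraries.

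Igfbp2 (ENSMUSG00000039323, chromosome 1, 72824503 to 72852474, plus strand) was a Leydig cell gene in both conditions. It had 461 and 274 CPM in TO Leydig cells and 1092 and 1214 CPM in testis Leydig cells. The ranges were far apart, and the log2 fold change was -1.80 ± 0.34 (SE, adjusted p = 0.0309), not called at the threshold. After thinning, an Igfbp2 UMI was present in 28% and 23.2% of the TO Leydig cells, in 73.9% and 81.5% of the testis Leydig cells and in at most 2.4% of stromal cells. Leydig markers (5 genes) summed to 9030 and 3463 CPM in TO Leydig cells and 12146 and 17321 CPM in testis ones, so markers of the type were lower beside Igfbp2, and their part in the result was not tested. Of the 2 Leydig clusters, cluster 16 was nearly all TO cells (329 and 318 against 4 and 5), and there Igfbp2 had 894 and 417 CPM. In cluster 2, which both conditions shared, it had 388 and 242 CPM in TOs against 1094 and 1218 CPM in testes.

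Germ cells had Igfbp2 as well. Spermatogonia had 114 and 132 CPM in TOs and 171 and 154 CPM in testes (log2 fold change -0.46, adjusted p = 0.11), and spermatocytes had 94.9 and 95.7 CPM against 49.3 and 42.9 CPM (0.93, adjusted p = 0.0114). Within spermatocyte cluster 9 Igfbp2 had 106 and 99.3 CPM in TOs and 107 and 78.4 CPM in testes, with a log2 fold change of 0.11 (adjusted p = 0.817). Within spermatogonial cluster 14, which held 90 and 41 TO cells and 532 and 207 testis cells, it had 22.7 and 42.6 CPM against 171 and 155 CPM, a log2 fold change of -2.45 (adjusted p = 1.29e-06). Cluster 15, with most TO spermatogonia (414 and 240) and 9 and 5 testis cells, had 135 and 151 CPM in TOs. With cluster 14 alone, a choice made after seeing the data, other members changed too. Igfbp3 passed the call (2.28, adjusted p = 0.00541), but from only 9 and 6 TO UMIs and 6 and 4 testis UMIs. With so few UMIs, no change is read from it. Insr was also called higher (1.79, adjusted p = 0.00511), having been left out for background in the whole group. The share of all genes called in this fit was not counted. Igf1r turned from -0.17 to 0.85 (adjusted p = 0.0185), which was not called, with 742 and 429 CPM in TOs against 331 and 304 CPM in testes.

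**Figure D4:**
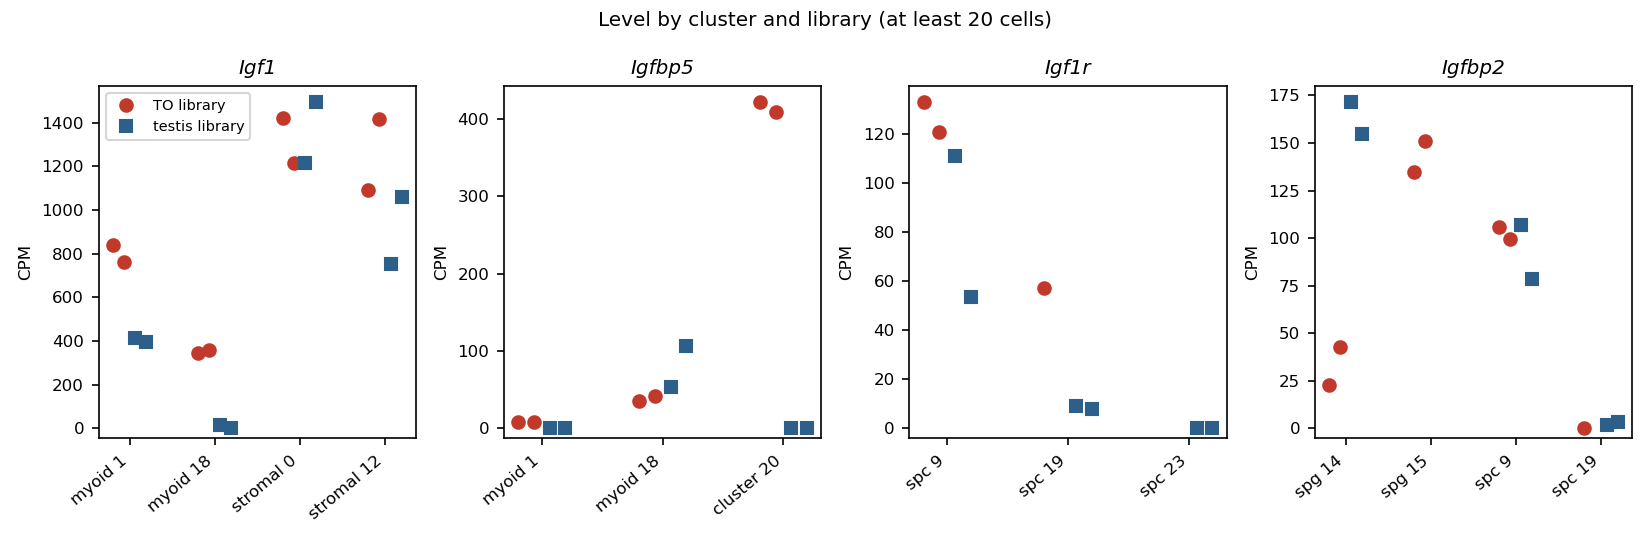
CPM by cluster and library (circles TO, squares testis, clusters with at least 20 cells in the library) for Igf1 in myoid and stromal clusters, Igfbp5 in myoid clusters and cluster 20, Igf1r in spermatocyte (spc) clusters and Igfbp2 in spermatogonial (spg) and spermatocyte clusters. Igf1 was higher in TOs in both myoid clusters, while Igf1r and Igfbp2 fell from cluster 9 to cluster 19 in the testes.

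Igfbp3 (ENSMUSG00000020427, chromosome 11, 7206086 to 7213923, minus strand) encodes the main carrier of IGFs in serum. Sertoli cells had 191 and 272 CPM from 2719 and 2026 UMIs in TOs, and 9.67 and 2.66 CPM from 24 and 3 UMIs in testes. The log2 fold change was 5.07 ± 0.41 (SE, n = 2 libraries per condition, adjusted p = 0.000119), and the call held in all 16 alternatives run on it, with log2 fold changes of 4.53 to 6.50. The highest was without testis replicate 1, when the testis arm rested on 3 UMIs. Of the 16, the setting at an adjusted p below 0.05 only relaxed the threshold and could not lose the call. The Igfbp3 change was the largest of the 5 called pairs. After thinning, 20.7% and 28.4% of the TO Sertoli cells had an Igfbp3 UMI, against 1% and 0% of the testis Sertoli cells and 0.7% to 3.4% in the other TO types. All 3 Sertoli clusters of the TOs had it. Cluster 17 had 256 and 393 CPM, cluster 6 had 179 and 252 CPM, and cluster 24 had 99.1 and 104 CPM, while in the testes cluster 6 had 10 and 0 CPM and cluster 26 had 3 CPM. Sertoli markers summed to 8001 and 8312 CPM in TO Sertoli cells and 4925 and 4988 CPM in testis ones.

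In the testes, Igfbp3 was highest in endothelial cells at 62.5 and 52.4 CPM, followed by stromal cells at 15.9 and 37.6 CPM. Endothelial markers summed to 15 and 11 CPM in TO Sertoli cells, against 2380 to 2995 CPM in testis endothelial cells. In TO Leydig cells Igfbp3 had 10.5 and 17.3 CPM against 0.278 and 1.18 CPM in testes (log2 fold change 4.10, adjusted p = 0.0174, with 1 and 4 testis UMIs). In TO spermatogonia it had 11.3 and 9.16 CPM against 2.04 and 2.9 CPM (2.06, adjusted p = 0.0103). Neither pair was called. TO macrophages, myoid cells, spermatocytes and stromal cells lay in a like range, from 4.43 to 14.4 CPM, which is the range these TO types shared outside Sertoli cells.

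Igfbp4 (ENSMUSG00000017493, chromosome 11, 99041244 to 99054392, plus strand) encodes a binding protein that PAPP-A cuts. In macrophages it had 549 and 611 CPM in TOs and 238 and 207 CPM in testes. The ranges did not overlap, and the log2 fold change was 1.56 ± 0.27 (SE, adjusted p = 0.00125). An Igfbp4 UMI was found after thinning in 52.4% and 57.8% of the TO macrophages and 25.4% and 26.4% of the testis macrophages, and in at most 1% of Sertoli cells. All macrophages fell in 1 cluster. Stromal cells, another source, had less Igfbp4 than macrophages in the TOs, with 314 and 431 CPM, and stromal markers summed to 223 and 173 CPM in TO macrophages against 41.7 and 9.61 CPM in testis macrophages. Macrophage markers (6 genes) were also higher beside Igfbp4, with sums of 32161 and 28327 CPM in TOs against 11965 and 11399 CPM in testes. The part of either list in the result was not tested. Without testis replicate 1 the log2 fold change was 1.64 (adjusted p = 0.0119), and without testis replicate 2 it was 1.41 (adjusted p = 0.0173).

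In the other types tested Igfbp4 was not called. Stromal cells had 314 and 431 CPM in TOs and 578 and 526 CPM in testes (log2 fold change -0.50, adjusted p = 0.231). Leydig cells had 82.4 and 85.1 CPM against 345 and 163 CPM (-1.76, adjusted p = 0.0451). Without testis replicate 2 the Leydig difference was called at -2.18 (adjusted p = 0.00195), and without testis replicate 1 it was -1.09 (adjusted p = 0.0512). In myoid cells, where it was low, Igfbp4 had 38.9 and 78.9 CPM against 30.4 and 24.5 CPM (1.07, adjusted p = 0.0583), a difference that was called without TO replicate 1 (1.49, adjusted p = 0.000211) and was 0.48 without TO replicate 2 (adjusted p = 0.376). The endothelial cells of the testes had the highest testis level, with 742 and 599 CPM.

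**Figure D5:**
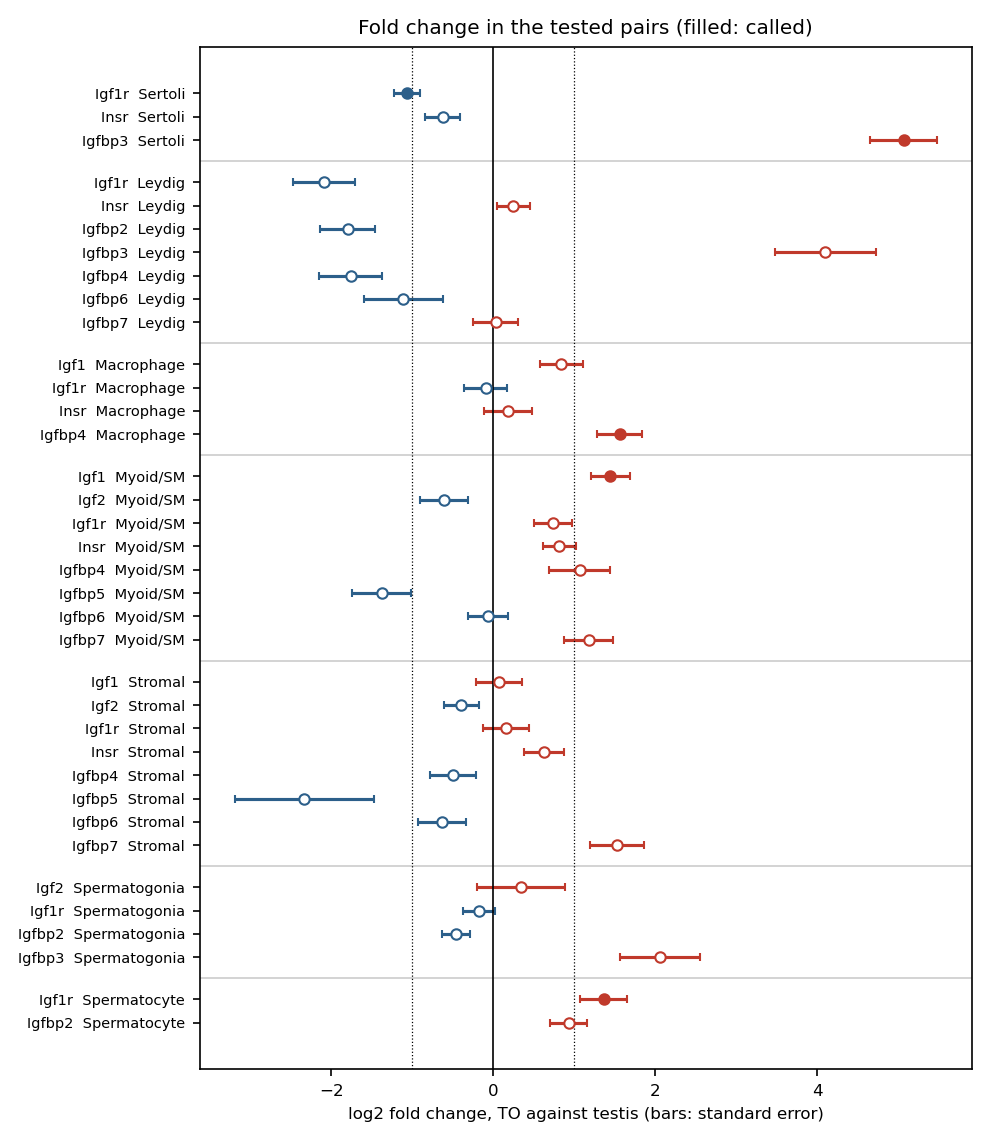
Log2 fold change of TOs against testes with its standard error for the 36 tested pairs, grouped by cell type (filled symbols, called; dotted lines, the fold threshold of 1 on the log2 scale). Igfbp3 in Sertoli cells lies farthest from 0 at 5.07, and Leydig cells hold 4 pairs beyond -1, none of them called.

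Igfbp5 (ENSMUSG00000026185, chromosome 1, 72857932 to 72874884, minus strand) lies 5457 bases from Igfbp2 with no annotated gene between them, yet their cell types differed. Myoid cells had 9.18 and 10.3 CPM in TOs and 16.5 and 34.1 CPM in testes (log2 fold change -1.38 ± 0.36 SE, adjusted p = 0.0185, not called). It was -0.83 without testis replicate 2, and without testis replicate 1 it was called at -1.84 (adjusted p = 0.0036). The clusters of the group pointed in opposite directions. In cluster 18 Igfbp5 had 35.5 and 41.6 CPM in TOs and 53.1 and 107 CPM in testes, whereas in cluster 1 it had 8 and 8.3 CPM in TOs from 88 and 96 UMIs and no UMI in the testes. In stromal cells Igfbp5 had 2.49 and 1.17 CPM against 2.17 and 17.2 CPM, with overlapping ranges. Leydig, macrophage, Sertoli, spermatid and spermatocyte cells had 0 to 6 UMIs per library.

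Igfbp6 (ENSMUSG00000023046, chromosome 15, 102144362 to 102149511, plus strand) encodes a binding protein that prefers IGF2. Stromal cells had 1511 and 1322 CPM in TOs and 2158 and 2441 CPM in testes. The TO values were lower in both libraries, with a log2 fold change of -0.63 ± 0.30 (SE) that did not pass the test (adjusted p = 0.162). Myoid cells had 921 and 710 CPM against 811 and 854 CPM, with overlapping ranges. Again the clusters differed. Cluster 1 had 920 and 713 CPM in TOs against 1161 and 1252 CPM in testes, and cluster 18 had 935 and 671 CPM against 39.4 and 4.3 CPM. Leydig cells had 256 and 258 CPM in TOs, and in testes 730 CPM in replicate 1 but 260 CPM in replicate 2, a spread wider than the difference (log2 fold change -1.11, adjusted p = 0.205).

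Igfbp7 (ENSMUSG00000036256, chromosome 5, 77349240 to 77408041, minus strand) encodes a secreted protein of vessel walls with low affinity for IGFs. In stromal cells it had 3835 and 3950 CPM in TOs and 1404 and 1420 CPM in testes. The libraries of each condition lay close together and the conditions far apart, with a log2 fold change of 1.53 ± 0.33 (SE), but the adjusted p of 0.0156 missed the call. The call depended on the library left out, since it was made without TO replicate 1 (adjusted p = 0.000378) or TO replicate 2 (adjusted p = 0.00122) but not without testis replicate 1 (adjusted p = 0.144) or testis replicate 2 (adjusted p = 0.122). In myoid cells it had 3100 and 3710 CPM against 1261 and 1702 CPM (1.18, adjusted p = 0.0176), which was not called. It was called with cluster 1 alone (1.54, adjusted p = 0.00532) and without TO replicate 1 (adjusted p = 0.000588), but not without TO replicate 2 (adjusted p = 0.0159), testis replicate 1 (0.97, adjusted p = 0.15) or testis replicate 2 (adjusted p = 0.053). Leydig cells had 1063 and 842 CPM against 765 and 918 CPM, with overlapping ranges. The endothelial cells of the testes reached 4026 and 5155 CPM, and 98.5% and 100% of them had an Igfbp7 UMI after thinning. In the TOs, where no endothelial cells were named, 96.7% and 98% of myoid cells and 95.9% and 97% of stromal cells had one.

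The change between conditions also differed among the somatic cell types for some of these genes. In 1 fit over Sertoli, Leydig, macrophage, myoid and stromal cells, the log2 fold change of each type was set against the mean of the other 4 types. Of all genes, 9.06% were called in Sertoli cells, 6.16% in Leydig cells, 3.36% in macrophages, 3.76% in myoid cells and 2.2% in stromal cells. Among members tested in their type, which numbered 3, 7, 4, 8 and 8 in that order, 8 pairs were called. The shares include genes that the background rule removes, whereas the 8 pairs do not, so the 2 are over unlike sets. Igf1r was lower in Leydig cells by this measure (-1.99 ± 0.24 SE, adjusted p = 3.68e-05) and higher in myoid cells (1.27 ± 0.25 SE, adjusted p = 0.00329). Igfbp4 was lower in Leydig cells (-2.46, adjusted p = 0.000114) and higher in macrophages (1.76, adjusted p = 0.00937). When each gene was compared only among types in which it was itself tested, a choice made after seeing the data, these 4 remained called, 3 of the other 4 did not, and Igfbp2 in Leydig cells could not be compared. Igfbp3 in Sertoli cells was not called by this measure (2.87, adjusted p = 0.202), so its change was not shown to differ from the mean of the other 4 types. That mean included types in which Igfbp3 had been left out for background. Among these, stromal cells passed the same thresholds at -5.58 (adjusted p = 0.000538), a pair outside the 8. The count of 8 pairs was 5 without testis replicate 1 and 5 without testis replicate 2.

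Other genes of the pathway were counted from a list of 45, which held further ligands, receptors, binding proteins, proteases, adaptors and the PI3K and AKT core. Over 8 cell types, 16 pairs of these were called, but 5 without testis replicate 1 and 6 without testis replicate 2. In Sertoli cells 28 were tested, 3 were higher and 1 lower, with a median log2 fold change of 0.03 beside 0.01 for all genes. Of all genes tested in Sertoli cells, 6.74% were called higher and 14.8% lower. Ptprf, a receptor phosphatase, had 89.9 and 185 CPM in TOs against 8.06 and 13.3 CPM (log2 fold change 3.86, adjusted p = 0.000772). Eif4ebp1, a translation repressor controlled by mTOR, had a log2 fold change of 2.44 (adjusted p = 0.000287) and the kinase gene Akt1 of 1.18 (adjusted p = 0.00899). Foxo1, a transcription factor that AKT holds in check, was lower, with 19 and 19.5 CPM against 61.2 and 40.8 CPM (-1.38, adjusted p = 0.00413).

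In Leydig cells 33 genes of the list were tested and only Stc2, whose product inhibits PAPP-A, was called, with 115 and 186 CPM in TOs against 18.3 and 20.3 CPM (log2 fold change 2.81, adjusted p = 0.0092). In myoid cells 1 of 35 was called, the protease gene Adam12 (2.60, adjusted p = 0.00149). In macrophages 1 of 23 was called, the PI3K subunit gene Pik3cb (1.49, adjusted p = 0.00635). The shares of all genes called higher and lower were 0.279% and 0.688% in Leydig cells. They were 3.98% and 17.8% in myoid cells and 2.62% and 13% in macrophages. In stromal cells 0 of 34 were called by edgeR and 0 by DESeq2, with 10 at an unadjusted p under 0.05. In spermatogonia 1 of 30 was called, Igf2bp3, an RNA-binding protein gene, which was lower with 15.2 and 14.9 CPM against 47.2 and 48.5 CPM (-1.72, adjusted p = 0.000138). With spermatogonial cluster 14 alone, 0 of 27 were lower and 1 was higher, so this call was lost there. The share of all genes was not counted for that cluster. Of all genes, 1.86% were called higher and 15% lower in stromal cells, and 0.334% higher and 8.43% lower in spermatogonia.

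In spermatocytes 8 of 26 genes of the list were higher in TOs and 0 lower (1 lower with DESeq2), and the list's median log2 fold change was 0.79 beside 0.02 for all genes. The 6 largest were Foxo1 (1.53, adjusted p = 0.00216), Grb2 (1.38, adjusted p = 0.00316), Foxo3 (1.38, adjusted p = 0.00852), Rps6kb1 (1.35, adjusted p = 0.00281), Ptprf (1.30, adjusted p = 0.00369) and Tsc1 (1.14, adjusted p = 0.00532). Of all genes tested in spermatocytes, 7.93% were called higher and 17.7% lower. With spermatocyte cluster 9 alone, 0 of 27 genes of the list were higher and 1 was lower. The share of all genes called in that fit was not counted. The count thus changed with the choice of clusters, as the Igf1r difference did.

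Across 34 sums of library and cell type, the genes most like each family member by Pearson correlation of log2(CPM + 1), out of 11335 genes with at least 50 CPM in a sum, were as follows. S100a6 and Slc8a1 were among the genes most like Igf1 (both r = 0.89), and Igf2 was closest to Gpc3 (r = 0.93) and Hs3st3a1. Igf1r was closest to Jkamp (r = 0.93), Tpd52l2 and Tada2a, and Insr to Ano6 (r = 0.94), Gm4258 and Irf2. Igfbp2 was closest to Coq8a (r = 0.87), Lss and Timm17b. Igfbp3 had the weakest likeness, with Edn1 (r = 0.80), Cdr2l and Wt1. Igfbp4 was closest to Msn (r = 0.89), Nrp1 and Lgals9, and Igfbp5 to Pde3a (r = 0.91), Fibin and Hspb2. Igfbp6 was closest to Col6a1 (r = 0.96), C1s2 and Col3a1, and Igfbp7 to Htra1 (r = 0.95), Ppic and Sparcl1. The sums share libraries, and these values describe likeness only.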

How the data were processed

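The authors deposited 10x Genomics matrices of raw UMI counts per gene and barcode. The submitters' processing notes name Cell Ranger 7.1.0 and mm10. The members and gene lists were chosen with earlier results of these data known. Putative doublets, the barcodes with the highest Scrublet scores at a rate of 0.8% per 1000 barcodes, were removed, after which barcodes outside 1000 to 5000 detected genes, above 20000 UMIs or above 10% mitochondrial UMIs were dropped. Cells were integrated with a re-implementation of Harmony and clustered (scanpy 1.11.5, Leiden, 30 components, resolution 1). A cluster was named from fixed markers, with at least 3 detected, and left unnamed where 2 types scored within 0.15 and no own marker led. A condition's cells kept the name only if at least 3 markers were each detected in 10% of them. The last 2 rules were set after the clusters were seen. UMI counts were summed per library and type (types with at least 10 cells per library) and tested in each type over all genes with edgeR 4.0.16 (TMM, filterByExpr, quasi-likelihood test, two-sided) and Benjamini-Hochberg adjustment. Genes with a pooled level at least 5 times higher in all other cells of either condition were removed first. With 2 libraries against 2 an exact permutation test cannot go below p = 0.33, so none was used. In simulated data, 95.5% to 99.5% of 200 genes changed by 4-fold were called in each type except spermatids (34%), with 0 to 2 false calls. The simulation used 1 fixed dispersion for all genes, changed only genes with at least 200 UMIs and removed no gene for background. It therefore does not show how often real changes of that size were called. In Leydig cells, Igf1r at a log2 fold change of -2.09 was not called. The test was run with other size factors (RLE), DESeq2, other filters, a replicate block, without each library, without doublet removal, upper limits or Harmony, and at Leiden resolution 2. Restricting each type to its largest cluster, and the comparison between types to those in which a gene was tested, were chosen after seeing the data. Gene positions are from GENCODE M21 on GRCm38 (mm10), in which 32158 of 32285 identifiers were found. Named genes were the 10 members, the called genes of the pathway list (at most the 6 largest per type) and the 3 genes most like each member, of which 2 are not reported here.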

Additional observations from a re-analysis of the deposited data

Results flagged for a closer look

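Among pairs of gene and somatic cell type that were tested in their type, the change of 8 differed from the mean change of the other somatic types. In log2 units the difference was -2.26 for Igfbp2 in Leydig cells, -1.99 for Igf1r in Leydig cells, -2.46 for Igfbp4 in Leydig cells and -1.97 for Igfbp6 in Leydig cells. It was 1.76 for Igfbp4 in macrophages and 1.27 for Igf1r in myoid cells. It was -1.74 for Igf1 in stromal cells and -1.82 for Igfbp6 in stromal cells. Restricted to types in which the gene was tested, Igf1 in stromal cells (-1.25, adjusted p = 0.0392), Igfbp6 in Leydig cells (-0.39, adjusted p = 0.49) and Igfbp6 in stromal cells (-0.21, adjusted p = 0.846) were no longer called, and Igfbp2 could not be compared, since Leydig cells were the only somatic type in which it was tested.

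Igfbp5 was present in cells that entered no comparison. Cluster 20 held the endothelial cells of the testes and 66 and 79 TO cells that were left unnamed, because fewer than 3 endothelial markers were each detected in 10% of them. Kdr had 224 and 116 CPM there, and Pecam1 was at 0 in both TO libraries. In these TO cells Igfbp5 had 422 and 409 CPM from 188 and 286 UMIs, whereas the testis cells of the cluster had no Igfbp5 UMI. The TO cells also had 1133 and 933 CPM of Igfbp4 and 314 and 325 CPM of Igf1r. Of the 7 Sertoli markers, only Wt1, Cldn11 and Sox9 were looked up in these TO cells. They reached 922 and 579, 680 and 577, and 283 and 240 CPM, which does not name the cells. The unnamed TO cells together held 53.7% and 63.8% of the Igfbp5 UMIs of the TO libraries.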

How the results depend on the processing

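None of the 5 called pairs reversed its direction. Among pairs that were not called, Igf1 and Igf1r in stromal cells, Igfbp6 in myoid cells, Igfbp7 in Leydig cells, and Igf1r in macrophages and spermatogonia changed sign under at least 1 alternative. Of the 5 called pairs, Igfbp3 in Sertoli cells held under all 16 alternatives, and the 4 others lost the call in 2 to 6 alternatives. The alternative at an adjusted p below 0.05 used the main fit and could not lose a call. Igf1r in Sertoli cells also fell short with any count kept (-0.96) and without upper limits on genes and UMIs (-0.90), and Igf1r in spermatocytes with a background ratio of 2 (1.27). The share of all genes called was counted for the main fits only. It is therefore not known for the other settings, single clusters or fewer libraries, whose counts cannot be set beside it. The count of pairs higher in TOs, 4, was 7 with DESeq2, 7 with any count kept, 13 with no gene left out for background, 8 at an adjusted p below 0.05 and 9 without doublet removal. The count of pairs lower, 1, was 4 with DESeq2, 0 with any count kept, 2 with a background ratio of 2, 2 with no gene left out, 5 at an adjusted p below 0.05 and 0 without upper limits. Pathway calls, 16, were 7 with a background ratio of 2, 26 with no gene left out and 26 at an adjusted p below 0.05. Pairs differing between somatic types, 8, were 13 with any count kept, 4 without doublet removal and 4 among tested types only. Leaving out 1 library in turn gave 1 to 7 pairs higher, 0 to 2 lower, 5 to 23 pathway calls and 5 to 7 pairs differing between types, with the lone library assumed to vary like the others. Apart from changes that fewer genes or libraries in the fit entail, the cause was not tested. With a replicate block, 6 pairs were higher, 2 lower and 25 pathway genes called. Deviations of same-numbered libraries correlated at 0.00065 to 0.18, and the labels tie them by number only, so the block was not taken as a pairing. Myoid cells could not be tested without Harmony, since under 10 were named in a library.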
